A study of Mus musculus and Homo sapiens with 90 samples.

Results

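The negative controls of a massively parallel reporter assay (MPRA) run in 4 liver systems were 2048 short windows, out of 105232 region names counted in the 16 reporter tables. They were taken as every entry whose name did not begin with the prefixes of the tested regulatory elements or peaks, and the same name was joined over the 5 sub-libraries into which the reporter library had been divided. The 12 tables with a class column gave the same division for all 214818 of their entries. The study asked how gut microbes relate to the activity of regulatory DNA in the liver, and compared the RNA made from each reporter with the DNA of the same reporter.

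HepG2, a human liver cancer cell line labelled p53-WT, was measured in all 5 sub-libraries. Libraries titled Hep3B and labelled p53-null were measured in sub-library 2 only, and their cell line entry reads HepG2, so the name Hep3B is used here only as their title. Conventional liver and germ-free liver came from C57BL/6 mice. Germ-free animals are raised without microbes, and the conventional animals carry no treatment entry. No label used here gives the age of the animals, or says whether a numbered replicate is 1 mouse or 1 culture, so the p-values measure the spread between these libraries, which may be technical. All systems share the same designed windows. A reporter count holds no endogenous transcript, so the tissue labels were not checked against marker genes.

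A reporter assay places many DNA pieces in copies of one construct and counts the transcripts of each piece against its copies in the DNA. Negative controls are pieces with no intended enhancer or promoter function in the cells studied, and they give the range of RNA/DNA ratios that a construct produces without a chosen regulatory element. An individual control can still hold short motifs that transcription factors bind, so a control set is read as a distribution and not as a fixed 0. A ratio above 0 on the log2 scale means that a window was more frequent in RNA than in DNA relative to the other regions of the library.

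The control names have the form of the systematic open reading frame names of budding yeast, with a letter for the chromosome, one for the arm, a number and a strand letter, followed by a start and an end. No label states their source and the files do not pair them with gene names, so windows are named only by their identifiers. Every window spanned 190 bases. The 2048 windows came from 1712 open reading frame labels: 1407 labels gave 1 window, 305 gave 2 or more, and none gave more than 4. There were 2040 names beginning with Y, 3 with Q and 5 with R, and the strand letter was W in 1000 names and C in 1045. Starts within the label ran from 0 to 8661, with a median of 418.

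Depth was 1720314 to 8202279 counts in the 14 HepG2 RNA libraries, 9394679 to 17696987 in the 2 Hep3B RNA libraries, 1172822 to 6627375 in the 15 conventional liver RNA libraries and 2740171 to 25625463 in the 15 germ-free RNA libraries. The 5 HepG2 DNA libraries held 3075432 to 8091318 counts, the 15 conventional liver DNA libraries 2507261 to 6381704 and the 15 germ-free DNA libraries 4028092 to 9897059. The Hep3B DNA library held 1700473. HepG2 and Hep3B had 1 DNA library per sub-library, so the DNA side of their ratios has no replicate. The median control DNA count was 29 in Hep3B against 79 to 297 in the HepG2 sub-libraries, 170 to 468 in the conventional livers and 125 to 308 in the germ-free livers.

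The smallest RNA count of any region in any table was 10, so a control with fewer RNA counts in a library is not seen here. Of the 2048 controls, 2025 were listed in HepG2, 1938 in the conventional livers, 1922 in the germ-free livers and 1893 in Hep3B. Over the sub-libraries of a system the lists differed: 1325 controls were listed in all 5 HepG2 sub-libraries, 147 in all 5 of conventional liver and 347 in all 5 of germ-free liver. Only 60 controls were listed in all 16 tables, and 7 in 1 table. A control that HepG2 listed in a sub-library was listed by germ-free liver in 27.4% to 90.8% of cases, and a tested region in 48.3% to 94.8%. In each of the 5 sub-libraries the controls were listed less often there than the tested regions. In the conventional livers the range was 10.8% to 87.0% for controls and 21.3% to 86.1% for tested regions, and the lowest values of both classes were in sub-library 2. In Hep3B it was 94.6% of controls and 96.4% of tested regions.

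Controls missing from a liver table had lower ratios in HepG2 than those it listed. In germ-free sub-library 3 the 504 controls that were also listed had a median log2 ratio in HepG2 of -0.14, and the unlisted ones -0.29. Their HepG2 DNA medians were 197 and 135 counts. The same order, lower ratio and lower DNA count for the unlisted, held in all 5 sub-libraries of both livers. In Hep3B the unlisted controls had the lower DNA median, 77.5 against 209, but a HepG2 ratio of -0.11 against -0.16. The liver distributions below are therefore those of controls that passed this lower limit on RNA counts.

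Negative controls took a smaller share of the RNA than of the DNA in every system. This share needs no scaling factor. In HepG2 they took 3.76% to 5.75% of RNA counts over 14 libraries and 6.22% to 7.49% of DNA counts over 5 libraries. In the conventional livers they took 1.37% to 4.13% of RNA counts and 4.07% to 7.69% of DNA counts. In the germ-free livers the shares were 1.94% to 5.05% of RNA and 3.31% to 6.05% of DNA. In Hep3B they were 3.65% and 4.41% in the 2 RNA libraries and 4.87% in the DNA library (95% Wilson interval 4.83% to 4.90%, which covers counting error only). In 46 of 46 RNA libraries the share lay below that of every DNA library of the same table.

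**Figure D1:**
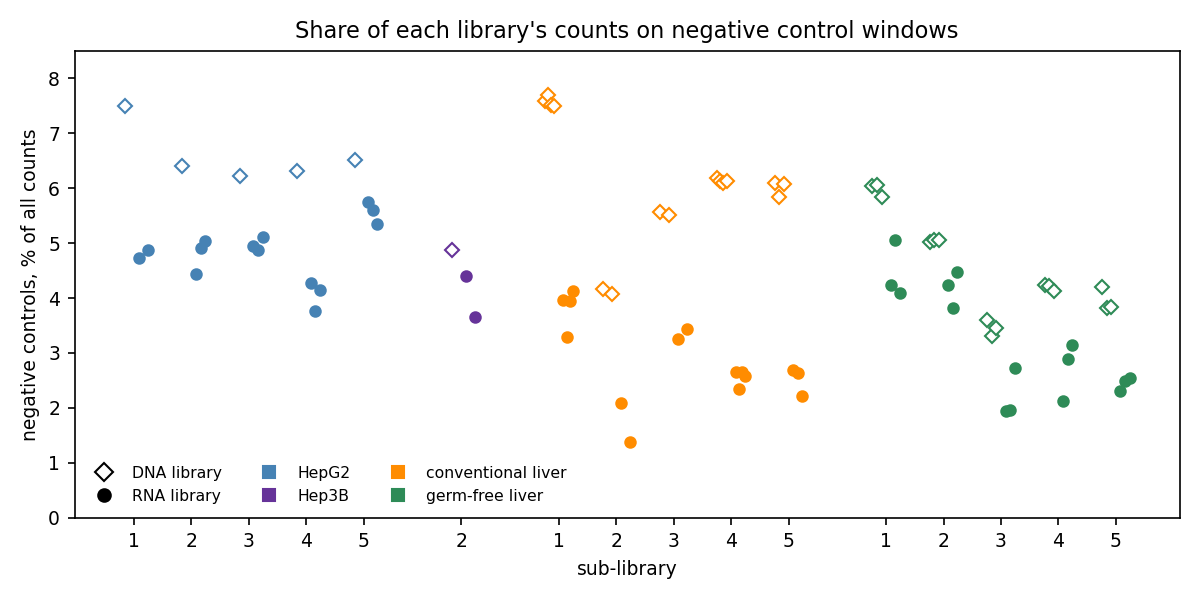
Percent of all counts that fell on negative control windows, by sub-library (horizontal axis) in the 4 systems, with each DNA library as an open diamond and each RNA library as a filled circle. In every sub-library the RNA libraries lie below the DNA libraries, with the smallest RNA share, 1.37%, in a library of conventional liver sub-library 2.

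The drop from DNA to RNA share was deepest in the conventional livers. The mean RNA share divided by the mean DNA share was 0.417 to 0.604 over the 5 conventional liver sub-libraries. It was 0.618 to 0.828 in the germ-free livers, 0.642 to 0.856 in HepG2 and 0.828 in Hep3B. Conventional liver lay below germ-free liver and below HepG2 in each of the 5 sub-libraries. The share falls when controls lose RNA and also when other regions gain it, and it does not tell these apart.

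Per window, the typical control lay slightly below the typical region. The difference between the median control and the median of all regions, on the log2 RNA/DNA scale, was taken in each RNA library. Over 14 HepG2 libraries it ran from -0.41 to -0.01 with a median of -0.22, and it was below 0 in all 14. Over 15 conventional liver libraries it ran from -0.69 to 0.0037 with a median of -0.19, below 0 in 14. Over 15 germ-free libraries it ran from -1.45 to -0.26 with a median of -0.58, below 0 in all 15. The 2 Hep3B libraries gave -0.36 and -0.01. The order of the livers is the reverse of that by share of counts: conventional liver had the deeper drop in share and germ-free liver the lower median window.

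Germ-free sub-library 5 stood apart from the other germ-free sub-libraries. Its 3 RNA libraries had control medians 1.15 to 1.45 below the median of all regions, with -0.26 to -0.84 in the 12 other germ-free libraries. The groups did not overlap. HepG2 sub-library 5 was at -0.01 to -0.09 and conventional liver sub-library 5 was at -0.26 to -0.43. The deposited column names of the germ-free DNA in sub-library 5 carry another prefix than those of the other germ-free sub-libraries, and the part of that in the result was not tested.

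The spread of the controls was wide in every system, but narrower than that of all regions. The fitted log2 ratio came from the edgeR model of RNA against DNA libraries within a sub-library. In HepG2 its SD was 0.79 over 8948 control measurements, where a measurement is 1 control in 1 sub-library, against 1.21 over all regions. The SDs were 0.88 against 1.45 in the conventional livers, 1.27 against 1.45 in the germ-free livers and 0.95 against 1.34 in Hep3B. The upper end of the central 95% of the controls corresponded to an RNA/DNA ratio of 2.22 to 2.68 in the 5 HepG2 sub-libraries. It corresponded to 2.25 to 3.41 in the conventional livers, 2.75 to 5.02 in the germ-free livers and 2.84 in Hep3B. The lower end was 0.241 to 0.315 in HepG2, 0.0832 to 0.312 in the conventional livers, 0.0620 to 0.186 in the germ-free livers and 0.221 in Hep3B. Germ-free sub-library 5 had both the highest upper end and the lowest lower end among the 16 tables.

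**Figure D2:**
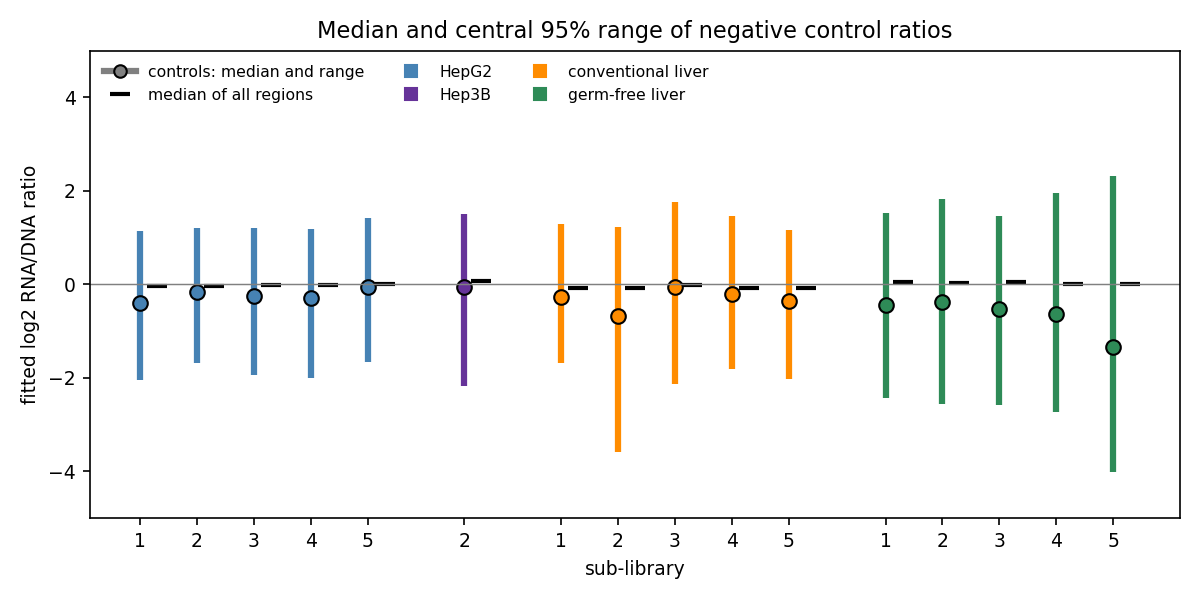
Fitted log2 RNA/DNA ratio of the negative controls (vertical axis) by sub-library in the 4 systems, with the control median as a circle, the central 95% of the controls as a bar and the median of all regions as a short line. The control medians lie below the short lines in all 16 tables, and the range is widest in germ-free sub-library 5.

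In HepG2, fewer controls than regions overall passed the test in either direction. At an adjusted p of 0.05 in edgeR's quasi-likelihood test, 404 of 8948 control measurements were above 0, which is 4.51%, against 17.3% of all region measurements. Below 0 were 792, which is 8.85%, against 12.6% of all. The controls above 0 made up 1.40% in sub-library 1, where there were 2 RNA libraries, and 2.32% to 7.40% in the other 4, where there were 3. Without replicate 1 the count above 0 was 576 over the sub-libraries that could still be fitted, where the full data gave 381.

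In conventional liver, 630 of 5894 control measurements were above 0, which is 10.7%, against 25.0% of all. Below 0 were 1298, which is 22.0%, against 21.6% of all, so the share below 0 was near the background. By sub-library, 1.89% to 15.2% of controls were above 0 and 8.55% to 29.6% below. Sub-library 2, with 212 controls, and sub-library 3 had 2 RNA and 2 DNA libraries each and gave the fewest calls below 0 in counts. As a share this was 19.3% of the controls in sub-library 2, against 12.7% of all regions there. In sub-library 3 it was 8.55%, against 10.4%.

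In the germ-free livers the controls were called below 0 more often than regions overall. Here 2211 of 5907 control measurements were below 0, which is 37.4%, against 25.7% of all. Above 0 were 758, which is 12.8%, against 28.4% of all. In sub-library 5 alone 756 of 1259 were below 0, which is 60.0%, where all regions had 34.0%. In the other 4 sub-libraries the share of controls below 0 was 24.3% to 33.8% and that of all regions 16.5% to 29.0%, and in each of them the controls had the higher share. Without sub-library 5 the count below 0 was 1455, and without replicate 3 it was 1444, with 413 above 0.

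In Hep3B, 174 of 1893 controls were above 0, which is 9.19%, against 22.7% of all regions, and 131 were below, which is 6.92%, against 12.8%. The controls above 0 outnumbered those below in Hep3B, while those below outnumbered those above in the other 3 systems. In Hep3B this order turned with DESeq2, which gave 65 above and 161 below, with library totals (143 and 168) and with TMM factors from the controls (8 and 75). With a minimum DNA count of 50 only 442 controls remained, with 69 above and 80 below.

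These counts depend on where 0 is set. Of the called control measurements, 33.8% were above 0 in HepG2, 32.7% in the conventional livers, 25.5% in the germ-free livers and 57.0% in Hep3B with TMM factors over all regions. With library totals as the scale the shares above 0 were 11.4%, 2.29%, 15.0% and 46.0%. With TMM factors from the controls alone they were 53.1%, 54.2%, 54.7% and 9.64%. Library totals moved the median of all regions by over 0.1 in HepG2 (to -0.33), conventional liver (to -1.01) and germ-free liver (to -0.31). TMM factors from the controls moved it to 0.21, 0.20, 0.65 and 0.19 in HepG2, conventional liver, germ-free liver and Hep3B. The distance of the control median from the median of all regions moved little. It was -0.22, -0.21 and -0.22 in HepG2 under the 3 scales in that order, -0.18, -0.21 and -0.19 in the conventional livers, -0.62, -0.60 and -0.65 in the germ-free livers and -0.14, -0.14 and -0.16 in Hep3B.

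**Figure D3:**
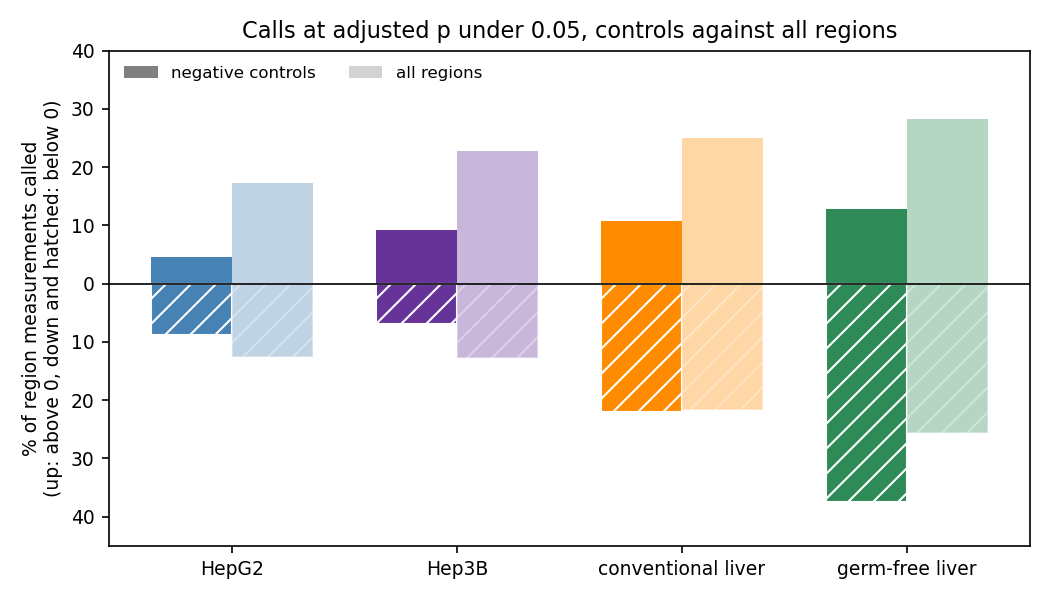
Percent of region measurements called above 0 (plain bars, upward) and below 0 (hatched bars, downward) at an adjusted p under 0.05 in edgeR, for negative controls (dark) and all regions (pale) in each system. Controls lie under all regions in every upward bar, and only in the germ-free livers is the downward bar of the controls longer by more than 1 percentage point, with 37.4% against 25.7%.

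The share of controls below 0 was higher where the DNA count was high, and so was that of all regions. The control measurements of a system, and separately all region measurements, were divided into 3 equal groups by DNA count. In conventional liver 9.21% of the controls with the lowest DNA counts (median 119) and 35.1% of those with the highest (median 354) were below 0, against 8.61% and 34.8% of all regions. In HepG2 the control shares were 5.73% and 13.1%, against 6.54% and 20.0% of all. In the germ-free livers they were 30.2% and 44.6%, against 17.4% and 35.5%, and in Hep3B 0.792% and 17.7%, against 1.61% and 30.5%. The median log2 ratio of the controls fell over the same groups, from 0.05 to -0.48 in the conventional livers and from -0.38 to -0.83 in the germ-free livers, where that of all regions fell from 0.30 to -0.41 and from 0.36 to -0.34. The DNA count is the denominator of the ratio, and the lower limit of 10 RNA counts removes low ratios more readily where DNA is low, so the groups are not independent of the outcome. Controls kept much of their DNA order between systems. Across controls, log2 DNA in the same sub-library of 2 systems had a median r of 0.95 (0.83 to 0.98 over 18 pairs of tables), and in 2 sub-libraries of a system a median r of 0.84 (0.79 to 0.91 over 30 pairs). These points share the designed windows and carry no test.

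The order of the controls recurred between sub-libraries of a system. Across controls, the fitted ratios of 2 sub-libraries had a median r of 0.68 in HepG2, 0.56 in the conventional livers and 0.70 in the germ-free livers, each over 10 pairs of sub-libraries. The lowest of these was 0.31, in the conventional livers. The points of a pair share the window sequence and not the libraries. The SD of a control over the sub-libraries that listed it had a median of 0.38 in HepG2 (1909 controls listed in at least 3), 0.44 in the conventional livers (1325) and 0.77 in the germ-free livers (1228). The SD between RNA replicates within a sub-library had medians of 0.33, 0.53 and 0.51, and the SD between the control means was 0.68, 0.72 and 1.02. The SD over sub-libraries is of fits to several RNA libraries and the SD between replicates is of single libraries, so their sizes cannot be compared directly.

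Calls were then counted for each control over the sub-libraries that listed it. Nearly every tested region was placed in 1 sub-library only, so the names listed in at least 3 sub-libraries were mostly the controls themselves: 1909 of 1959 in HepG2, 1325 of 1366 in the conventional livers and 1228 of 1272 in the germ-free livers. The shares over all these names therefore lie close to those of the controls by construction. In HepG2, 13 of the 1909 controls, or 0.681%, were above 0 in every sub-library, against 0.868% of all names, and 41, or 2.15%, were below in every one, against 2.14%. There 1315, or 68.9%, were never called, against 68.1%. In the conventional livers, 20 of 1325 controls (1.51%) were above in every sub-library, against 1.54% of all names, and 57 (4.30%) below, against 4.39%, while 472 (35.6%) were never called, against 35.6%. In the germ-free livers, 22 of 1228 (1.79%) were above in every one, against 1.89%, and 137 (11.2%) below, against 11.0%, while 135 (11.0%) were never called, against 10.8%. The tested regions in these lists numbered 50, 41 and 44, too few to compare. Calls in opposite directions in different sub-libraries were counted over all listed controls, however few sub-libraries listed them. They were made for 7 of 2025 controls in HepG2, 41 of 1938 in the conventional livers and 85 of 1922 in the germ-free livers. A name listed in 1 sub-library cannot be called both ways, so no share over all regions is set beside these counts.

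The mean ratios of the controls were set side by side between systems. Over the controls listed in at least 3 sub-libraries, r between the means was 0.69 for HepG2 and Hep3B (1800 controls), where Hep3B gave 1 sub-library. It was 0.40 for conventional and germ-free liver (922), 0.36 for HepG2 and conventional liver (1305) and 0.14 for HepG2 and germ-free liver (1190). These are descriptions across windows that share sequence and DNA abundance. Of the controls called above 0 in every sub-library, conventional and germ-free liver shared 2 among the 922 listed in both. That is 11.8% of the 17 in the conventional livers and 11.1% of the 18 in the germ-free livers. HepG2 and conventional liver shared 1 of 13 and 19. Of those called below 0 in every sub-library, the livers shared 12. That is 38.7% of the 31 in the conventional livers and 10.8% of the 111 in the germ-free livers. These overlaps are counts, and nothing particular to the controls is read from them.

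There were 914 controls listed in at least 3 sub-libraries each of HepG2, conventional liver and germ-free liver. Only YBR072W_183_372 of these was called above 0 in every sub-library that listed it. Its log2 ratio lay between 1.16 and 2.29 in the 14 HepG2 RNA libraries, with a median of 1.88. In conventional liver it ran from 1.64 to 3.98 with a median of 3.00 (15 libraries), and in the germ-free livers from 2.05 to 3.63 with a median of 2.68 (15 libraries). All 44 of these libraries were above 0. The mean fitted ratio over 5 sub-libraries was 1.78 ± 0.33 (SD, n = 5) in HepG2, 2.77 ± 0.59 in the conventional livers and 2.72 ± 0.27 in the germ-free livers. Adjusted p ranged from 3.017e-06 to 0.01279 over the HepG2 sub-libraries, from 1.398e-10 to 0.01066 in the conventional livers and from 4.699e-05 to 0.000303 in the germ-free livers (edgeR). In the 2 Hep3B libraries it was at 0.76 and 0.94, where the fit gave 0.88 with an adjusted p of 0.05178 (edgeR) and a DNA count of 27.

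YCR024C-B_5_194 and YMR182C_358_547 were called below 0 in every sub-library of the same 3 systems that listed them. Both also passed the test below 0 in Hep3B. YCR024C-B_5_194 ran from -4.42 to -1.20 over 11 HepG2 libraries, from -3.10 to -1.45 over 11 conventional liver libraries and from -5.71 to -2.19 over 9 germ-free libraries. In Hep3B it was at -5.17 and -4.47. Its DNA counts were 516 to 1791, far above the control medians. YMR182C_358_547 had means of -1.36 ± 0.69 (SD, n = 5) in HepG2, -2.00 ± 0.25 (n = 4) in the conventional livers and -5.13 ± 2.21 (n = 4) in the germ-free livers. It had DNA counts of 2126.5 or more and, in the germ-free livers, RNA counts from 15 to 4959, so the germ-free libraries differed widely among themselves.

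Among the controls called above 0 in all 5 HepG2 sub-libraries, the highest medians were those of YHL046C_13_202 and YIL176C_14_203. YHL046C_13_202 ran from 1.74 to 2.37 over 14 HepG2 libraries, with a fitted mean of 2.13 ± 0.16 (SD, n = 5) and adjusted p from 1.87e-13 to 5.678e-06 (edgeR). It stood at 2.20 and 2.22 in the 2 Hep3B libraries. In conventional liver it ran from -1.40 to 1.33 with a median of 0.94, above 0 in 14 of 15 libraries, and in the germ-free livers from -1.45 to 0.75 with a median of -0.07, above 0 in 6 of 15. The HepG2 libraries lay above all 30 liver libraries. YIL176C_14_203 ran from 1.54 to 2.31 in HepG2, from -1.54 to 0.87 in the conventional livers and from -1.76 to 1.15 in the germ-free livers, again with no overlap between HepG2 and either liver, and was at 0.95 and 1.02 in Hep3B.

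Among those called below 0 in all 5, the lowest medians were those of YDR504C_30_219 and YBL026W_5_194. YDR504C_30_219 ran from -4.02 to -1.81 over 14 libraries and had a mean of -2.67 ± 0.63 (SD, n = 5). It was also below 0 in all 15 conventional liver libraries, at -2.53 to -0.10, and in all 12 germ-free libraries that listed it, at -7.08 to -2.48. YBL026W_5_194 ran from -3.20 to -0.87 in HepG2, with a mean of -2.06 ± 0.76 (n = 5). In the germ-free livers the same window was above 0 in all 15 libraries, from 0.66 to 3.67.

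In conventional liver YBR072W_183_372 was called above 0 in all 5 sub-libraries, and YHR043C_438_627 had the highest median among those called in 4. YHR043C_438_627 ran from 0.59 to 4.40 over 13 libraries, with a mean of 2.53 ± 1.20 (SD, n = 4), and with library totals as the scale it was called in 2 of 4 sub-libraries. In HepG2 it ran from -1.33 to 1.14 and passed the test in none of 5 sub-libraries. Among those called below 0 in all 5, the lowest medians were those of YML052W_338_527, at -4.78 to -1.96 with a mean of -3.17 ± 0.89 (n = 5), and YKL096W_310_499, at -4.57 to -1.59 with a mean of -2.23 ± 0.62 (n = 5). Both were below 0 in all 15 conventional liver libraries and all 14 HepG2 libraries.

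Among the controls called above 0 in all 5 germ-free sub-libraries, YDL160C_908_1097 and YGL213C_33_222 had the highest medians. YDL160C_908_1097 ran from 2.61 to 4.42 over 15 germ-free libraries, with a mean of 3.59 ± 0.50 (SD, n = 5), and from 0.26 to 3.64 over 13 conventional liver libraries. In all 14 HepG2 libraries it was below 0, from -1.89 to -0.62. YGL213C_33_222 followed the same order, with -2.71 to -0.64 in HepG2, -1.05 to 2.32 in the conventional livers and 2.17 to 3.76 in the germ-free livers. For both windows the HepG2 and germ-free libraries did not overlap.

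Among the controls called below 0 in all 5 germ-free sub-libraries, the lowest medians were those of YKL004W_144_333 and YBR294W_1250_1439. YKL004W_144_333 ran from -5.24 to -0.55 over 15 germ-free libraries, with a mean of -2.83 ± 1.35 (SD, n = 5), and from -0.52 to 1.64 over 13 conventional liver libraries, where 11 were above 0. YBR294W_1250_1439 ran from -3.47 to -0.51 in the germ-free livers with a mean of -1.66 ± 0.75 (n = 5). In the conventional livers it was below 0 in all 13 libraries too, from -3.64 to -0.43. Its germ-free calls were not stable to a lost library, since it was called in 2 of 5 sub-libraries without replicate 2 or without replicate 3.

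**Figure D4:**
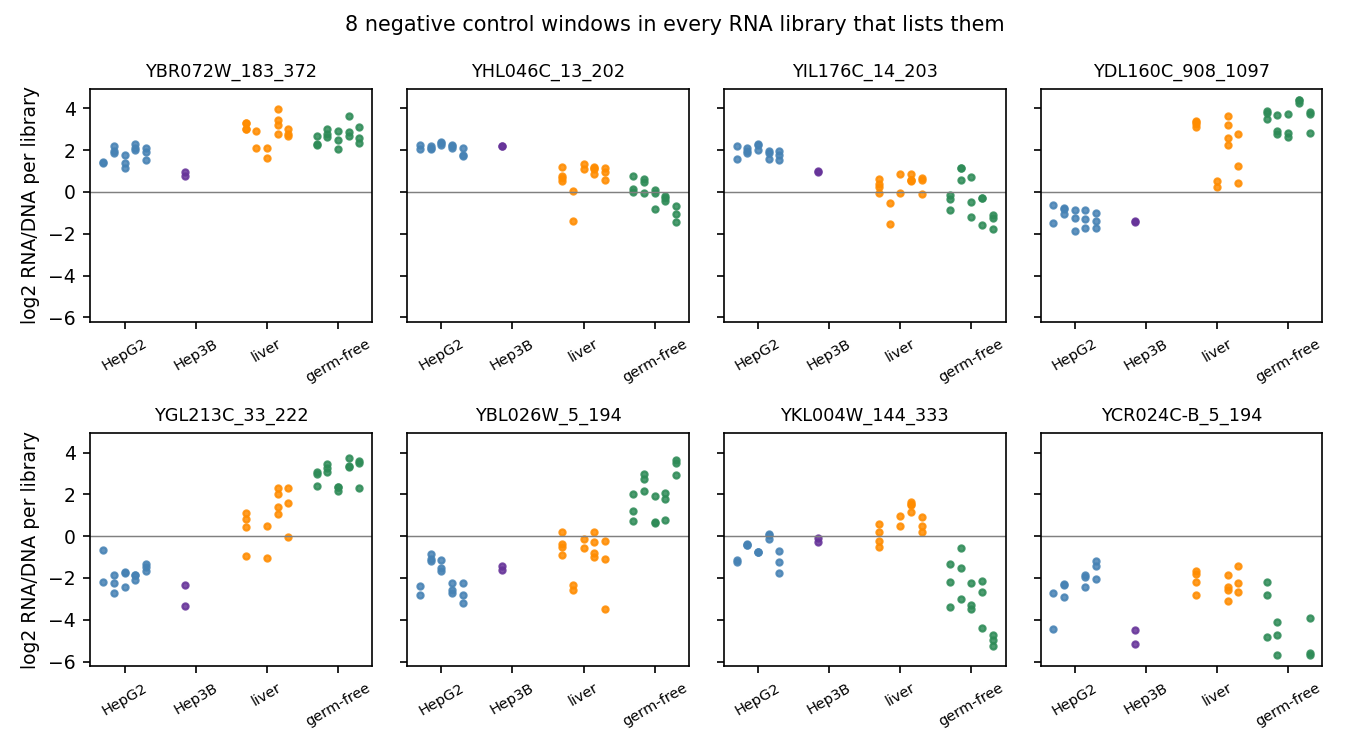
Log2 RNA/DNA ratio (vertical axis) of 8 negative control windows in every RNA library that lists them, grouped by system, with the libraries of 1 sub-library in 1 column of points. YBR072W_183_372 lies above 0 in every library shown, YHL046C_13_202 and YIL176C_14_203 are higher in HepG2 than in both livers, and YDL160C_908_1097 and YGL213C_33_222 change from below 0 in HepG2 to above 0 in the germ-free livers.

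Germ-free liver was then compared with conventional liver for the windows that both listed in a sub-library, with the system by RNA interaction as the test. Of 3486 control measurements, 780 were lower in the germ-free livers, which is 22.4%, against 20.7% of all regions. Higher were 368, which is 10.6%, against 18.6% of all. The median difference was -0.30 for controls and 0.01 for all regions. In sub-library 2, with 206 controls, the order was the opposite, with 38 higher and 21 lower. These are 18.4% and 10.2%, against 18.9% and 17.7% of all regions there. In sub-library 5 there were 120 higher and 316 lower of 838, which is 14.3% and 37.7%, against 27.0% and 27.9% of all regions. Without sub-library 5, 464 were lower. In sub-libraries 1, 3 and 4 the shares lower were 20.4%, 10.2% and 19.3%, against 21.8%, 10.2% and 19.9% of all regions. Only in sub-library 5 was the share of controls lower above that of all regions. Of the called controls 32.1% were higher, and this became 64.7% with library totals and 50.8% with TMM factors from the controls, so the direction of the count rests on the scale. The control median minus the median of all regions was -0.32, -0.29 and -0.32 under these scales.

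Of the 599 controls with a difference in at least 3 sub-libraries, 15 (2.5%) were called higher and 25 (4.17%) lower in the germ-free livers in every one. The shares over all 624 such names, which are mostly these controls, were 2.72% and 4.01%. YER190C-B_101_290 was higher by 2.39 (median over 5 sub-libraries, 1.08 to 2.99), with adjusted p from 0.0002401 to 0.02816 (edgeR). It ran from 0.91 to 2.58 over 15 germ-free libraries and from -2.17 to 1.50 over 15 conventional ones, and the groups were apart in 4 of 5 sub-libraries. YBL026W_5_194 was higher by 2.38 (1.73 to 4.62), with adjusted p from 2.277e-05 to 0.03117 (edgeR), and its groups were apart in all 5. Conventional liver had this window at -3.46 to 0.21. In the other direction, YKL004W_144_333 was lower in the germ-free livers, with a median difference of -3.66 (-5.40 to -2.14) and adjusted p from 8.609e-08 to 0.001119 (edgeR). YDR504C_30_219 was lower with a median difference of -2.80 (-3.40 to -1.70) and adjusted p from 1.405e-06 to 0.009737 (edgeR). For both, the groups were apart in all 4 sub-libraries that listed them in both livers. The windows were picked by their calls in this same comparison, so the separation largely follows from the choice and is no further support.

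Between conventional liver and HepG2 both shares of called controls were below those of all regions. Of 5465 control measurements 360 were higher in liver, which is 6.59%, against 12.5% of all regions, and 202 were lower, which is 3.70%, against 6.60%. The median difference of the controls was 0.03, as was that of all regions. Of the called controls 64.1% were higher in liver, and 15.3% with library totals. With the replicate number as a block 222 were higher and 125 lower, and with DESeq2 330 were lower. Among 1198 controls with 3 or more sub-libraries, 5 (0.417%) were called higher and 2 (0.167%) lower in every one. The shares over all 1234 such names were 0.405% and 0.243%. YNL161W_502_691 was higher in liver by 2.75 (0.81 to 3.46), with 4 of 5 sub-libraries called and adjusted p from 0.0007199 to 0.5341 (edgeR). It ran from -1.57 to 0.76 in HepG2 and from 0.13 to 2.86 in the conventional livers, where all 15 libraries were above 0. YMR229C_3016_3205 was higher by a median of 2.46 over 5 sub-libraries and was called in 4. Its difference was -1.55 in sub-library 2, with an adjusted p of 0.05904 (edgeR). On the lower side, YIL176C_14_203 had a median difference of -1.61 (-2.08 to -1.11) with adjusted p from 0.003326 to 0.04945 (edgeR). It was called in 2 sub-libraries when HepG2 replicate 1, 2 or 3 was left out. YPR036W-A_12_201 had a median difference of -2.38 (-3.61 to -2.04) and adjusted p from 3.522e-05 to 0.02532 (edgeR). Its HepG2 libraries lay at -0.92 to 0.26 and its conventional liver libraries at -4.35 to -1.34. The conventional liver side rests on 10 to 175 RNA counts, and the library at -4.35 is at the lower limit of 10. The window was called in 2 of 4 sub-libraries without HepG2 replicate 2 or 3.

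Germ-free liver and HepG2 share the HepG2 libraries with the preceding comparison, so the values stand side by side and are not independent of it. Of 5432 control measurements 510 were higher in the germ-free livers, which is 9.39%, against 15.9% of all regions, and 737 were lower, which is 13.6%, against 13.4%. Of the 737, 340 came from sub-library 5, and without it 397 were lower. In sub-library 5 the share lower was 31.4%, against 19.0% of all regions. In each of sub-libraries 1 to 4 it was below that of all regions, with 4.55% to 12.5% against 7.41% to 16.3%. The median difference was -0.30 for controls and 0.02 for all regions. Of the called controls 40.9% were higher, and 61.7% with TMM factors from the controls. Among 1093 controls with 3 or more sub-libraries, 28 (2.56%) were called higher and 16 (1.46%) lower in every one. The shares over all 1133 such names were 2.65% and 1.59%. YGL213C_33_222 was higher by 4.87 (4.20 to 5.68), with adjusted p from 4.629e-06 to 0.00083 (edgeR), and YDL160C_908_1097 by 4.81 (4.16 to 5.90), with adjusted p from 7.18e-06 to 0.0001587 (edgeR). The HepG2 side rests on few RNA counts, 10 to 51 for YGL213C_33_222, which reaches the lower limit of 10, and 25 to 134 for YDL160C_908_1097. YHL046C_13_202 had a median difference of -2.24 (-2.75 to -1.65), with adjusted p from 0.000419 to 0.01428 (edgeR), and YIL176C_14_203 one of -2.18 (-2.97 to -0.89), with adjusted p from 0.0005051 to 0.04301 (edgeR). For all 4 windows the libraries of the 2 systems were apart in all 5 sub-libraries. They were picked by their calls in this same comparison, so the separation largely follows from the choice and is no further support.

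Between the libraries titled Hep3B and HepG2, in the 1 sub-library that both have, both shares of called controls were below those of all regions. Of 1854 controls, 12 were higher, which is 0.647%, against 5.09% of all regions, and 35 were lower, which is 1.89%, against 5.60%. Of the called controls 25.5% were higher, and 57.1% with library totals. With the replicate number as a block 4 were higher and 9 lower, and with DESeq2 5 were higher. Leaving out 1 library moved the higher count to between 3 and 23 and the lower count to between 20 and 53, with both lowest values without HepG2 replicate 2 and both highest without HepG2 replicate 1. Without HepG2 replicate 3 and without either Hep3B replicate the higher count was 5 or 6. YAL060W_109_298 was at 2.68 and 2.80 in Hep3B and at -1.43 to 0.58 over 14 HepG2 libraries, a difference of 3.28 ± 0.40 (SE) in sub-library 2 with an adjusted p of 0.001687 (edgeR). YER018C_360_549 was at 3.33 and 3.45 in Hep3B and at -1.02 to 1.40 in HepG2, a difference of 2.44 ± 0.50 (SE) with an adjusted p of 0.01883 (edgeR), which was lost without HepG2 replicate 2. The Hep3B DNA counts of these windows were 21 and 14, from 1 library, so the ratios rest on few DNA counts.

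YNL279W_451_640 was lower in Hep3B, at -3.33 and -2.67, where HepG2 had -0.95 to 0.55, and the difference was -2.88 ± 0.35 (SE) with an adjusted p of 0.001705 (edgeR). YKR042W_237_426 was above 0 in all 14 HepG2 libraries, at 0.86 to 1.79, and at -1.04 and -0.99 in Hep3B. The difference was -2.39 ± 0.14 (SE) with an adjusted p of 6.37e-05 (edgeR), on 706 Hep3B DNA counts. The lowest Hep3B ratios, -5.33 for YMR105W-A_1_190 and -5.19 for YFR035C_131_320, had adjusted p of 0.003598 and 0.001906 in edgeR's test against DNA. Both windows were below 0 in every HepG2 library that listed them, and YFR035C_131_320 ran from -3.16 to 1.60 in the germ-free livers.

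Windows that share most of their bases had similar ratios. Within a label there were 369 pairs of windows, of which 168 overlapped and 71 shared 127 or more of their 190 bases. For pairs sharing 127 to 189 bases, r between the mean ratios of both windows was 0.76 in HepG2 (46 pairs), 0.72 in the conventional livers (26), 0.53 in the germ-free livers (26) and 0.54 in Hep3B (50). For pairs sharing 64 to 126 bases it was 0.53 (46 pairs), 0.21 (25), 0.01 (20) and 0.21 (48), and for pairs sharing 1 to 63 bases 0.17 (39), -0.18 (20), 0.36 (17) and 0.12 (38). For pairs of the same label with no shared base it was 0.12 (180 pairs), 0.07 (91), 0.06 (92) and 0.08 (180). These are descriptions, since pairs share libraries and a window can be in more than 1 pair. The median absolute difference of the strongly overlapping pairs was 0.33 in HepG2, 0.32 in the conventional livers, 0.56 in the germ-free livers and 0.50 in Hep3B. For pairs sharing 64 to 126 bases it was 0.46, 0.73, 0.83 and 0.69, and for pairs sharing 1 to 63 bases 0.57, 0.76, 0.56 and 0.61. Same-label pairs with no shared base had 0.56, 0.55, 0.76 and 0.72, and all pairs of controls 0.60, 0.66, 0.96 and 0.81. In the germ-free livers the pairs sharing 1 to 63 bases were thus as close as the strongly overlapping ones.

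**Figure D5:**
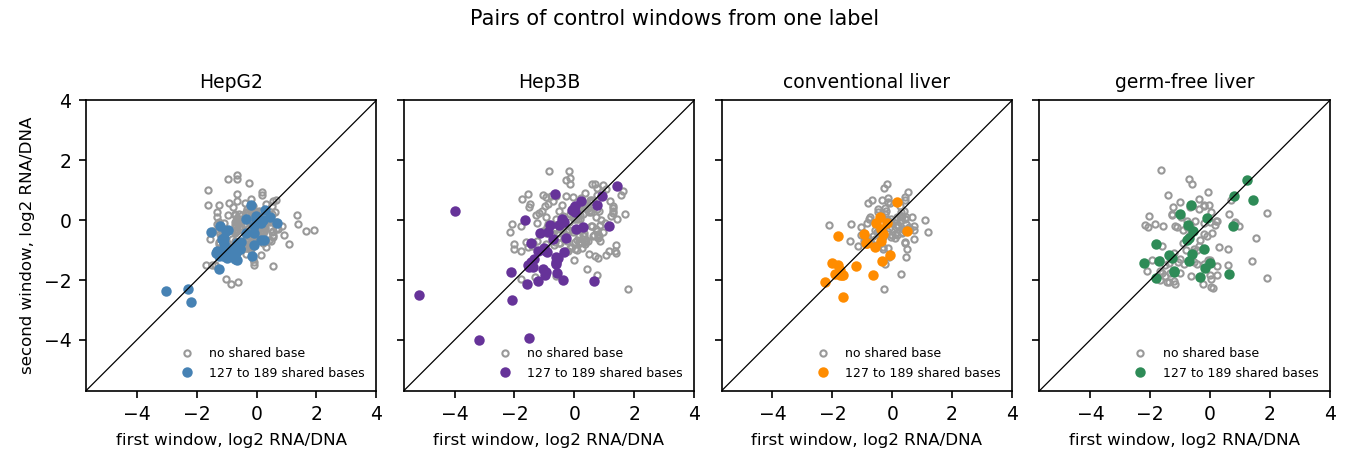
Mean fitted log2 RNA/DNA ratio of one window (horizontal axis) against another window of the same label (vertical axis) in each system, with pairs sharing 127 to 189 bases filled and pairs with no shared base open. The filled points follow the line of equal values, with r of 0.76 in HepG2 and 0.53 in the germ-free livers, and the open points do not, with r of 0.12 and 0.06.

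With 1 window kept per label, an alternative added after the data were seen, 354 of 7552 HepG2 control measurements were above 0 and 637 below, and 672 of 4948 in the germ-free livers were above and 1826 below. All 16 counts of calls stayed within 1.5 times those of the full set. Position and strand letter were taken from the name. The median of the control means was -0.29 for strand letter W and -0.25 for C in HepG2, and -0.65 and -0.52 in the germ-free livers. Windows starting at 0 to 100 had a median of -0.22 in the germ-free livers, and those starting after 500 had -0.62. In the conventional livers the order was the opposite, with -0.28 and -0.14. The 8 windows whose labels begin with Q or R were too few to describe as a class, and ranged in HepG2 from -1.55 for Q0250_141_330 to 0.89 for R0030W_278_467.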

How the data were processed

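The deposited tables hold whole-number counts per region and library, for RNA and DNA separately. The submitters' processing notes list BWA, edgeR 4.0.16 and DESeq2 1.42.1 with no role or order, and the build hg38. Whether molecular identifiers were collapsed is not given in the sources used here. Columns were matched to samples by the library names in the labels, which in 1 table differ in replicate number from the header. The RNA-seq tables of the series were not used.

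Within each sub-library, edgeR 4.0.16 (R 4.3.3) was fitted to every region whose DNA counts averaged 10 or more, with TMM factors and the robust quasi-likelihood F test. The coefficient was RNA against DNA, or its interaction with the system. P-values were adjusted by Benjamini-Hochberg over all regions of all sub-libraries of a comparison, with a threshold of 0.05. Ratios per library used a pseudocount of 0.5 counts and the mean of the DNA libraries. SEs were the fitted log2 value over the square root of F.

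The members and lists were chosen with earlier results of these data known. Windows named are the 2 leading ones each way of the up to 5 that a rule picked: called in the most sub-libraries, ties by median, listed in at least 3 (Hep3B: largest and smallest fitted values among those called), plus controls called in every sub-library of 3 systems. Those called below in all 3 were named after their values were seen. Replicates differed beyond counting error (lowest chi-square per degree of freedom 1.71). The statistics were tested on simulated data. Alternatives were library totals, TMM on the controls, DESeq2 1.42.0, no DNA minimum or 50, a replicate block, each replicate left out, and, added after the data were seen, 1 window per label and no sub-library 5. The window sequences were not used here.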

Additional observations from a re-analysis of the deposited data

Results flagged for a closer look

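The differences between systems below passed the interaction test in edgeR in most sub-libraries that list the window in both systems, and are medians over those sub-libraries on the log2 scale. From conventional to germ-free liver, YER190C-B_101_290 (2.39) and YBL026W_5_194 (2.38) were higher and YKL004W_144_333 (-3.66) and YDR504C_30_219 (-2.80) lower. From HepG2 to germ-free liver, YGL213C_33_222 (4.87) and YDL160C_908_1097 (4.81) were higher, and YHL046C_13_202 (-2.24) and YIL176C_14_203 (-2.18) lower. From HepG2 to conventional liver, YNL161W_502_691 (2.75) and YMR229C_3016_3205 (2.46) were higher and YIL176C_14_203 (-1.61) and YPR036W-A_12_201 (-2.38) lower. From HepG2 to Hep3B, in the 1 sub-library both have, YAL060W_109_298 (3.28) and YER018C_360_549 (2.44) were higher and YNL279W_451_640 (-2.88) and YKR042W_237_426 (-2.39) lower. Of 24 sets of 4 replicate values examined for a sample far from the others, none had one. Only conventional liver sub-libraries 1 and 4 have 4 replicates, so HepG2, Hep3B, germ-free liver and the other conventional liver sub-libraries were not examined.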

How the results depend on the processing

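The scale moved many counts of called controls. With library totals, HepG2 gave 202 above 0 and 1573 below, conventional liver 90 and 3846, and germ-free liver 493 above. On that scale germ-free against conventional liver gave 794 higher and 434 lower, conventional liver against HepG2 158 and 872, and Hep3B against HepG2 32 higher. With TMM factors from the controls alone, 505 were below 0 in HepG2 and 782 in conventional liver, germ-free liver gave 1449 above and 1201 below, and Hep3B 8 and 75. On that scale 517 were lower in germ-free than in conventional liver and 437 lower in germ-free liver than in HepG2. Hep3B against HepG2 gave 6 higher and 19 lower. Shares over all regions moved too. In conventional liver, library totals put 13.2% of all region measurements above 0 and 54.2% below, where TMM over all regions gave 25.0% and 21.6%. In germ-free liver, TMM factors from the controls put 43.8% of all above 0 and 13.7% below, where TMM over all regions gave 28.4% and 25.7%.

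DESeq2 gave 65 controls above 0 in Hep3B, 330 lower in conventional liver than in HepG2 and 5 higher in Hep3B than in HepG2. A DNA minimum of 50 left 69 above and 80 below in Hep3B. Without sub-library 5, 1455 were below 0 in germ-free liver, 464 lower than in conventional liver and 397 lower than in HepG2. Apart from the scale's own shift of 0, and from the fewer regions or libraries that a setting tests, the cause was not tested.

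Same-numbered RNA and DNA libraries of the livers did not deviate together (r from -0.05 to 0.03 over 30 pairs). The DNA libraries of a group differed little from each other, so these values cannot tell whether the numbers pair the samples. With a replicate block, conventional liver against HepG2 gave 222 higher and 125 lower, and Hep3B against HepG2 4 and 9. The other 8 counts with a replicate block stayed within 1.5 times. For HepG2 and Hep3B against DNA no paired analysis was possible because no residual degrees of freedom were left.

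Leaving out 1 replicate at a time, compared over the sub-libraries that could still be fitted, gave 297 to 576 above 0 and 565 to 1013 below in HepG2, 380 to 558 and 881 to 1185 in conventional liver, and 413 to 727 and 1444 to 2137 in germ-free liver. Germ-free against conventional liver gave 253 to 373 higher and 584 to 792 lower, conventional liver against HepG2 310 to 397 and 149 to 298, germ-free liver against HepG2 347 to 513 and 552 to 850, and Hep3B against HepG2 3 to 23 and 20 to 53. For Hep3B against DNA this could not be run. Where 1 library remained on a side, it was assumed to vary like the others. HepG2 sub-library 1 dropped out without replicate 1 or 2, as did conventional liver sub-libraries 2 and 3. No named window changed direction, with 343 values on the same side of the threshold and 9 that lost a majority of their calls.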
